A study of Mus musculus with 15 samples.

Results

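Adipogenic transcription factors are the DNA-binding proteins and partners that turn a precursor cell into an adipocyte. The 10 genes described here were Pparg, Rxra, Cebpa, Cebpb, Cebpd, Ebf1, Ebf2, Prdm16, Zfp423 and Klf15, out of 21770 protein-coding genes in the annotation. They were taken by name, and a peak was assigned to a gene when it overlapped the 2000 bp either side of any of its annotated transcript starts. The mark was H3K4me3, trimethylation of histone H3 at lysine 4, mapped by ChIP–seq in mouse mBA cells. Each of 3 conditions had 4 ChIP samples and 1 input. WT cells were wild type and labelled untreated. WT + 2HG cells were wild type and received the cell-permeable octyl ester of d-2-hydroxyglutarate in DMSO, which the study's methods give as 500 µM for 72 h. Whether the other cells received DMSO is not given in the sources used here, so an effect of 2HG and one of its vehicle cannot be told apart. CLPP-KO cells lacked the mitochondrial matrix protease CLPP and were labelled untreated. Per the labels they also received uridine, so that genotype and uridine cannot be told apart. WT + 2HG and CLPP-KO are also written as 2HG and knockout. All cells grew in high-glucose medium without pyruvate. The labels call the cells primary cells of brown adipose tissue, and the study's methods describe brown preadipocytes that were immortalized with SV40 large T antigen and then differentiated, so all conditions carried this antigen.

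Peak calling by the authors combined the 4 replicates, which left 1 deposited list per condition, of 12342 peaks for WT, 14059 with 2HG and 15118 in the knockout. A list has no spread between replicates, so no value below has an error and no difference between conditions could be tested. Each peak carries an area under the authors' significance curve. The areas are not scaled between lists, and each peak is therefore given by its percentile, the share of peaks in its own list with an area no larger. In a bulk sample, fewer marked cells and less mark per cell cannot be told apart. A percentile moves with the make-up of the list as well as with the peak. Read depth is not part of the lists.

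PPARγ, encoded by Pparg, is the nuclear receptor without which adipocytes do not form, and it binds DNA together with the retinoid X receptor RXRα, encoded by Rxra. C/EBPβ and C/EBPδ act early in differentiation, and C/EBPα follows and maintains the mature state together with PPARγ. EBF1, EBF2 and ZFP423 act in committed precursors, PRDM16 is a coregulator of the brown fat programme, and KLF15 is a zinc-finger factor that acts later in differentiation. H3K4me3 marks the promoters of active and poised genes, and wide H3K4me3 domains are known from genes that define a cell's identity. Most CpG-rich promoters carry the mark in most cell types.

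Promoter sequences came from a RefSeq table that holds 13 promoters of 8 of the 10 genes. It has no entry for Cebpd and Ebf2. Each of the 13 sequences was found exactly once in GRCm39. The 6 shown are those that the results on Pparg, Rxra and Ebf1 turn on. Each runs from 200 bases before the RefSeq start to 30 bases from it, 5′ to 3′, with every CpG in capitals.
Pparg, first start, inside the peak of every list (chr6:115337905-115338134, plus strand): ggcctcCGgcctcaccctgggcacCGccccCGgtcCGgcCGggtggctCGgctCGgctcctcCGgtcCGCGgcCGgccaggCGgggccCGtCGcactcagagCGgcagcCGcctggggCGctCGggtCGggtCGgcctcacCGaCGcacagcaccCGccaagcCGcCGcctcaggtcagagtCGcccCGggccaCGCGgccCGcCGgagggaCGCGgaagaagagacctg
Pparg, second start, just past the end of the WT + 2HG and CLPP-KO peaks (chr6:115339110-115339339, plus strand): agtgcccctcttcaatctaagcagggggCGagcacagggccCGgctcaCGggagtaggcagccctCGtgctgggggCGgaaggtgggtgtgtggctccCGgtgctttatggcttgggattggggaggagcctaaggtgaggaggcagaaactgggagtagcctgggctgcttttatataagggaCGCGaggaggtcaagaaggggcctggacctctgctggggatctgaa
Pparg, the third start, that of the longer protein, in no peak (chr6:115398827-115399056, plus strand): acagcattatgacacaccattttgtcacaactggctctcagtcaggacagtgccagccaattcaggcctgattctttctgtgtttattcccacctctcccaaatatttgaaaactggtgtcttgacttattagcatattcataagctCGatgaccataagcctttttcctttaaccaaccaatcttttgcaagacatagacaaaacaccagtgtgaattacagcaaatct
Rxra, first start, which lies in the gap between the peaks of every list (chr2:27567013-27567242, plus strand): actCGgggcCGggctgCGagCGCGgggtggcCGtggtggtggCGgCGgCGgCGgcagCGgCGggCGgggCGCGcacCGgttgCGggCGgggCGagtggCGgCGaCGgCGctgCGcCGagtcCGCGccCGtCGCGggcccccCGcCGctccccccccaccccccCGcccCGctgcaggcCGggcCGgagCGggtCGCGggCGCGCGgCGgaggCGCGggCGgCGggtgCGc
Ebf1, first start, inside the peak of every list (chr11:44508727-44508956, plus strand): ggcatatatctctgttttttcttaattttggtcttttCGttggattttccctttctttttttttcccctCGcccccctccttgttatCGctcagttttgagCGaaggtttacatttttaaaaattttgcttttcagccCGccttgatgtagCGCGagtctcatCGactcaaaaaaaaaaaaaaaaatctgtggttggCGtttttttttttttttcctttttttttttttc
Ebf1, second start, inside a CLPP-KO peak only (chr11:44510855-44511084, plus strand): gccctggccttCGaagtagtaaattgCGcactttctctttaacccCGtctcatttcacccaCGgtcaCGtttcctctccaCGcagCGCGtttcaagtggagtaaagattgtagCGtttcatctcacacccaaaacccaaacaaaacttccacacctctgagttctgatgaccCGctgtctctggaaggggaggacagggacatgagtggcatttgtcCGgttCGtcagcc
The first Pparg sequence holds 33 CpGs and the third holds 1, so the starts of this gene differ widely in CpG content. The Rxra sequence holds 48.

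Nearly every member had a promoter peak. Of the 10 members, 9 were marked in WT, 9 with 2HG and 10 in the knockout. The member without a peak in WT and WT + 2HG was Ebf2. Of all protein-coding genes, 51.3% had a promoter peak in WT, 56.4% with 2HG and 58.2% in the knockout. The strongest promoter peaks of the marked members were also large for their lists. Their median percentile was 92.0 in WT, 92.3 with 2HG and 93.6 in the knockout, against 59.3, 60.6 and 62.0 over all marked protein-coding genes. Ranked by area per bp, which takes out the width, the members' median percentile was 57.0, 70.2 and 73.0. The all-gene median under that ranking is not given here. In WT the order from high to low was Cebpb (97.1), Cebpd (95.8), Cebpa (94.9), Prdm16 (93.5), Klf15 (92.0), Zfp423 (81.3), Rxra (70.8), Ebf1 (41.7) and Pparg (17.0). Pparg was thus the member with the smallest promoter peak in WT. Without replicate lists it cannot be said which neighbours in this order differ.

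**Figure D1:**
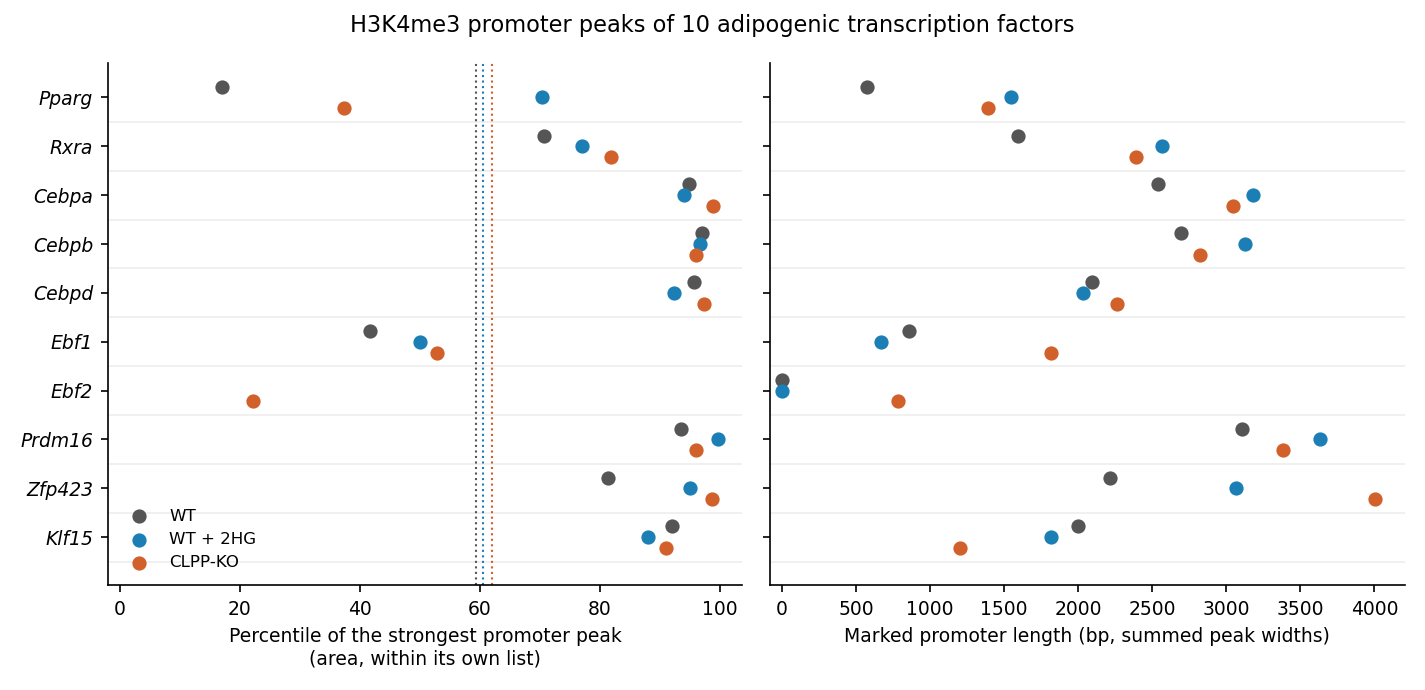
Left, percentile of the strongest promoter peak of each gene within its list (0 to 100, 1 point per list), with dotted lines at the median of all marked protein-coding genes (59.3 in WT, 60.6 with 2HG and 62.0 in the knockout). Right, summed width of its promoter peaks in bp. The C/EBP genes, Prdm16 and Klf15 lie at or above 88.0 in every list, Pparg lies at 17.0, 70.4 and 37.3, and Ebf2 has a point on the left for CLPP-KO only.

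Several of the members' strongest peaks were also wide. The strongest peak of Cebpa, Cebpb, Cebpd, Prdm16 and Zfp423 reached 2000 bp in every list, so 5 members passed that width in each. The share of all marked protein-coding genes that did so was 3.93% in WT, 6.03% with 2HG and 5.94% in the knockout. The width of 2000 bp was chosen with the members' widths known, and Klf15 lay just under it in WT, at 1996 bp. The widest was Prdm16, with 3104 bp in WT, 3634 bp with 2HG and 3380 bp in the knockout. The median width of the strongest promoter peak over all genes was 901 bp in WT, 1002 bp with 2HG and 990 bp in the knockout. Over the marked members it was 2092, 2030 and 1722.5 bp. Some members lay below the all-gene median. In WT these were Pparg (573 bp), Ebf1 (860 bp) and Rxra (886 bp), and with 2HG Ebf1 (668 bp). In the knockout they were Pparg (713 bp), Ebf1 (746 bp) and Ebf2 (785 bp).

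Pparg, on chromosome 6 (plus strand) from 115337675 to 115468268, has 30 annotated starts, which fall into 6 clusters when starts within 500 bp are joined. Transcripts from the first cluster encode proteins of up to 475 residues, the length of PPARγ1. The fifth cluster, at 115398883 to 115399015, encodes up to 505 residues, the length of the adipocyte form PPARγ2. In WT a single peak of 573 bp, at chr6:115337773-115338345, covered starts of the first cluster, with a percentile of 17.0. In WT + 2HG the peak at chr6:115337727-115339275 was 1549 bp wide, ran on into the second cluster, which holds the canonical start at 115339253, and had a percentile of 70.4. In CLPP-KO the same stretch held a peak of 713 bp at chr6:115337705-115338417, with a percentile of 37.3, and a separate one of 680 bp at chr6:115338577-115339256, with a percentile of 28.4, that overlapped no WT peak. The upstream edges lay within 68 bp of each other, and the lists differed in how far the mark ran downstream. The authors' summit −log10 p of the strongest peak was 5.46 in WT, 16.5 with 2HG and 11.5 in the knockout. This value is not scaled between lists, and for the strongest peak of each member marked in WT it was lowest in WT. Ranked by it within each list, the strongest Pparg peak had percentiles of 19.0, 58.9 and 37.7. Against WT the percentile was 53.4 points higher in WT + 2HG and 20.3 points higher in CLPP-KO. Of the 11057 protein-coding genes marked in both WT and WT + 2HG, 15 genes, Pparg included, had a difference at least as large. In CLPP-KO the number was 1704 of 11084 genes. The percentile takes the strongest peak alone, and the stretch was a single peak in WT + 2HG but was split in CLPP-KO. No percentile with peaks joined is given here, and how far the split set the difference between these lists was not tested. The marked length was 2.70 times that of WT in WT + 2HG and 2.43 times in CLPP-KO. The PPARγ2 cluster, next to the third RefSeq start, lay in no peak of any list. The start of the noncoding gene Gm67351 lay inside the WT + 2HG peak and the second CLPP-KO peak, and the mark there cannot be assigned to one gene.

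**Figure D2:**
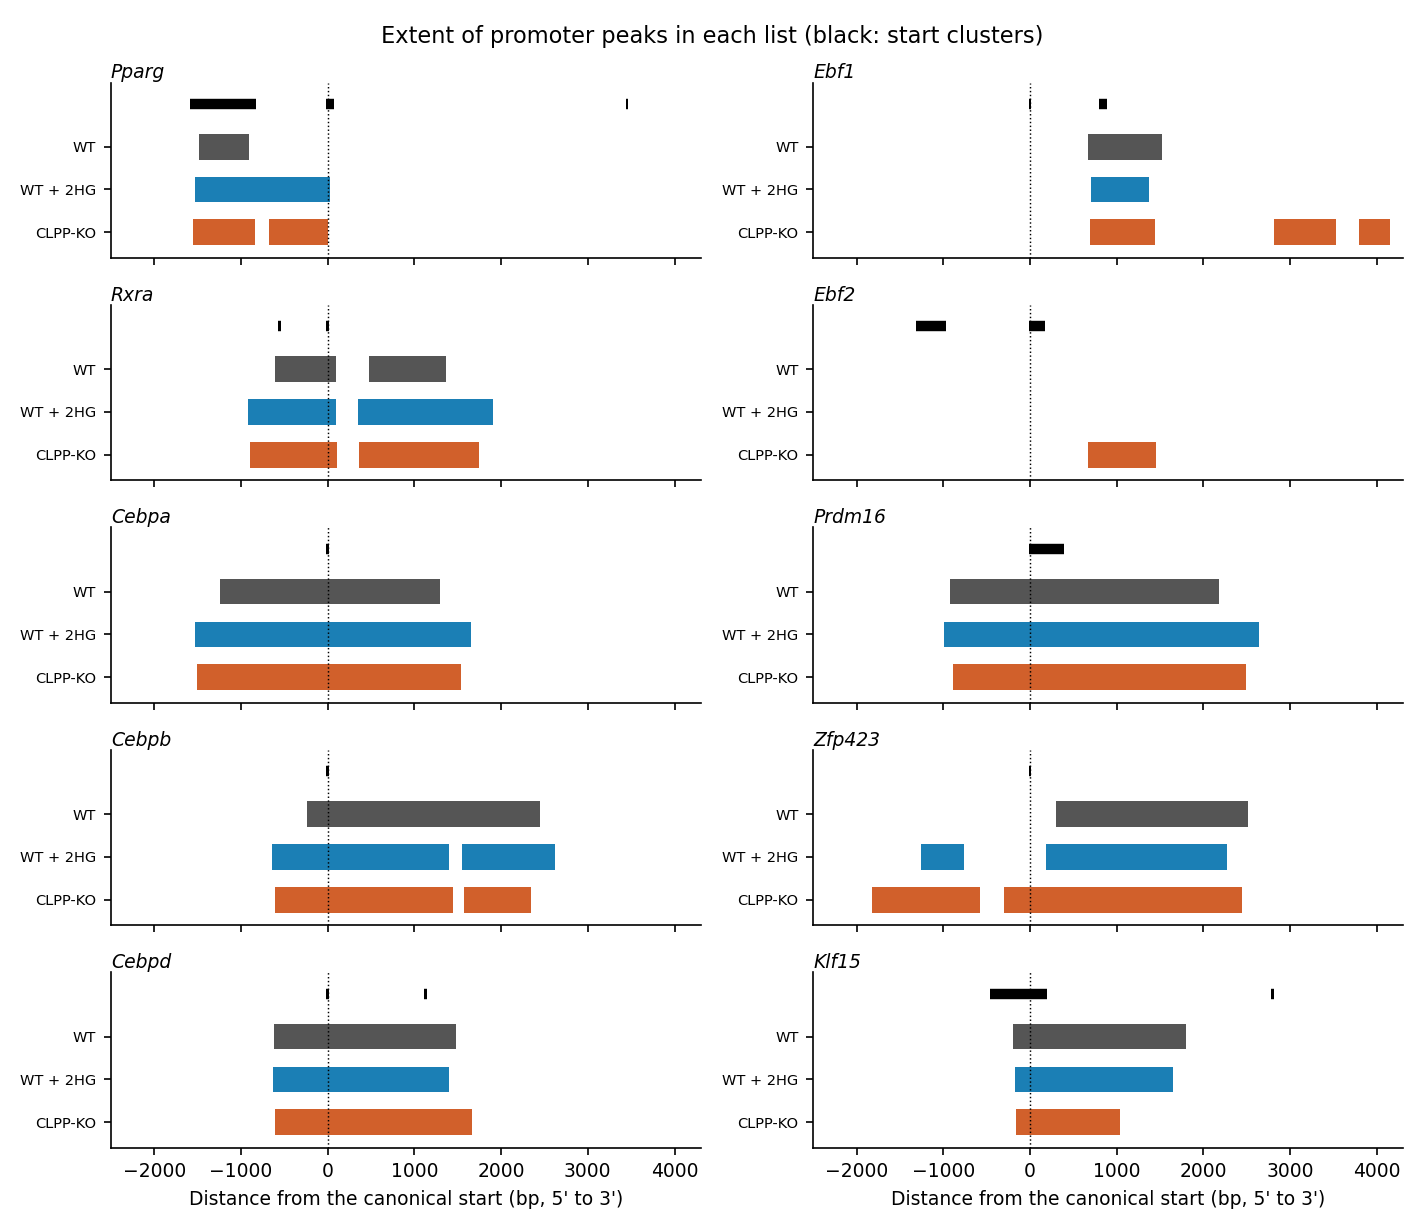
Extent of each promoter peak (bars, 1 row per list) against distance in bp from the canonical start of the gene (dotted line), read 5′ to 3′, with start clusters in black above. At Pparg the WT bar ends 908 bp before the canonical start and the WT + 2HG bar 22 bp after it. The WT + 2HG peak of Zfp423 that lies 16579 to 17074 bp downstream and clusters farther away are outside the range drawn.

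Rxra, on chromosome 2 (plus strand) from 27566452 to 27653330, had 2 promoter peaks in each list, on either side of the RefSeq start of the CpG-rich sequence shown above. The first bases of that sequence lie inside the upstream peak. The upstream peak covered 2 start clusters in every list, one of them the canonical start at 27567006. It measured 707 bp in WT, 1018 bp with 2HG and 996 bp in the knockout, with percentiles of 53.8, 69.7 and 67.6. The downstream peak was the stronger in each list. It measured 886 bp in WT, 1551 bp with 2HG and 1392 bp in the knockout, with percentiles of 70.8, 77.1 and 81.9. Both peaks were narrowest in WT. The RefSeq start at 27567213, whose 300 bases hold 55 CpGs, more than 99.7% of the promoters in the table, lay between them, in no peak of any list. The summed length was 1.61 times that of WT in WT + 2HG and just under 1.5 times in the knockout, and a ratio of 1.5 was the limit used for a longer mark. The remaining 5 start clusters, which include those of shorter proteins of 439 residues, lay in no peak.

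The C/EBP genes ranked high in every list, and their percentiles by area differed from WT by less than 4 points. Peaks that rank this high in WT have little room to rise by this measure. The study reports more H3K4me3 at the C/EBPβ promoter from read density, which a rank within a list does not measure. Other rankings gave larger differences. By summit p Cebpa changed by -20.1 points with 2HG, and Cebpd lay 22.7 points higher in the knockout, while by area per bp Cebpa was 17.3 points higher in the knockout and Cebpb 24.5 and 19.2 points higher in the 2HG and knockout lists. Cebpa, on chromosome 7 from 34818718 to 34821353, had a peak of 2538 bp in WT, 3180 bp with 2HG and 3046 bp in the knockout, with percentiles of 94.9, 94.0 and 98.8. The peaks reached 1242 bp upstream of its canonical start in WT, 1528 bp with 2HG and 1504 bp in the knockout, and 1295, 1651 and 1541 bp downstream, so the WT peak was the shorter on both sides. Cebpd, on chromosome 16 from 15705150 to 15708895, had a peak of 2092 bp in WT, 2030 bp with 2HG and 2263 bp in the knockout, with percentiles of 95.8, 92.3 and 97.4. Its edges upstream lay between 603 and 634 bp from the start. Cebpb, an intronless gene on chromosome 2, had its strongest peak at a percentile of 97.1 in WT, 96.7 with 2HG and 96.0 in the knockout. That peak reached 242 bp upstream of the start in WT, 648 bp with 2HG and 610 bp in the knockout. In WT it ran 2450 bp downstream without a break, whereas in the other lists a gap between 1402 and 1551 bp or between 1442 and 1575 bp separated a weaker second peak, with percentiles of 29.5 with 2HG and 18.6 in the knockout. The Cebpb promoter also holds starts of the protein-coding gene Peds1 and the noncoding A530013C23Rik, that of Cebpa holds Gm45091 and that of Cebpd holds Gm56598, so none of these peaks belongs to a single gene.

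The genes of committed precursors gave less uniform values. Ebf1, on chromosome 11 from 44508138 to 44898918, had a peak of 860 bp in WT, 668 bp with 2HG and 746 bp in the knockout at the same place, with percentiles of 41.7, 50.0 and 52.9. Its canonical start lay outside, 664 bp upstream of the WT peak, and 2 other starts lay inside. CLPP-KO held a peak of 720 bp at chr11:44510951-44511670 and another of 352 bp at chr11:44511932-44512283 that overlapped no WT peak, with percentiles of 18.5 and 5.62. The first of these covers the second RefSeq start of Ebf1 printed above. The marked length was 0.777 times that of WT in WT + 2HG and 2.11 times in CLPP-KO, and the strongest peak was narrower than in WT in both. Ebf2, on chromosome 14 from 67470736 to 67668394, had a promoter peak in CLPP-KO only, at chr14:67472701-67473485. It was 785 bp wide, lay 511 bp from the nearest start with no start inside it, and had a percentile of 22.2.

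Zfp423, on chromosome 8 (minus strand) from 88388438 to 88687289, had a strongest peak of 2215 bp in WT, 2081 bp with 2HG and 2751 bp in the knockout, with percentiles of 81.3, 95.0 and 98.7. It was the only member besides Pparg whose percentile was at least 10 points above WT in both lists. The edge of this peak towards the canonical start lay 301 bp downstream of it in WT, 189 bp downstream in WT + 2HG and 306 bp upstream in CLPP-KO, so only the CLPP-KO peak covered that start. A RefSeq start at 88686223 lay inside the peak of every list. Upstream, WT + 2HG had a peak of 490 bp at chr8:88688056-88688545 and CLPP-KO one of 1252 bp at chr8:88687867-88689118, with percentiles of 11.8 and 32.1 and the start of the noncoding Gm64143 inside each. WT had none there. A further WT + 2HG peak of 496 bp at chr8:88670215-88670710, absent from WT, covered the start of a transcript at 88670680. The marked length was 1.38 times that of WT in WT + 2HG and 1.81 times in CLPP-KO.

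Prdm16, on chromosome 4 (minus strand) from 154400581 to 154721625, had a single peak over its first start cluster in each list, with percentiles of 93.5 in WT, 99.7 with 2HG and 96.1 in the knockout. Ranked by width within its list, it lay at percentiles of 99.7, 99.9 and 99.7. The peak reached 927 bp upstream and 2176 bp downstream of the canonical start in WT, 994 and 2639 bp in WT + 2HG, and 892 and 2487 bp in CLPP-KO. It also held starts of the antisense gene Prdm16os and of Gm57100. The remaining 3 start clusters of Prdm16, inside the gene, lay in no peak. Klf15, on chromosome 6 (plus strand) from 90438998 to 90452220, had 1 peak per list, of 1996 bp in WT, 1815 bp with 2HG and 1201 bp in the knockout. Its percentiles were 92.0, 88.0 and 91.1. The upstream edge lay between 163 and 196 bp from the canonical start in the 3 lists, and the downstream edge at 1799 bp in WT, 1645 bp with 2HG and 1037 bp in the knockout. Klf15 was the one member with a shorter mark by the limit of 1.5, at 0.602 times the WT length in CLPP-KO, while its area kept about the same rank.

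The members' differences from WT were set beside those of all genes, with no test of either. A percentile difference of at least 10 points was counted as higher or lower. In WT + 2HG 2 of 9 members were higher, Pparg and Zfp423, and none lower, against 32.0% higher and 9.70% lower among the 11057 protein-coding genes marked in both lists. In CLPP-KO 4 of 9 were higher, Pparg, Rxra, Ebf1 and Zfp423, and none lower, against 36.1% and 6.56% of 11084 genes. When the lists were limited to equal size, or ranked among peaks shared by all lists, Zfp423 was the 1 member higher in CLPP-KO. In WT + 2HG the count was 4 ranked by summit p and 5 by area per bp, and under the latter Rxra lay below WT in both comparisons. The knockout count was 5 ranked by summit p and 6 by area per bp. The median change over the 9 members was 6.12 points with 2HG and 3.89 in the knockout, and over all genes 3.69 and 5.27. The ranking set how far the members' median lay from that of all genes. By area per bp it was 24.5 and 19.2, against 5.03 and 6.95, and by summit p 8.89 and 13.5, against 5.47 and 7.60. Among peaks shared by all lists it was -0.98 and 1.58, against -1.21 and -1.51. Members that start above 90 in WT have little room to rise by area. The marked length was at least 1.5 times that of WT for 2 members in WT + 2HG, Pparg and Rxra, and for 3 in CLPP-KO, Pparg, Ebf1 and Zfp423. Over all genes 13.9% and 14.3% were longer. No member was shorter by this limit in WT + 2HG and 1 was in CLPP-KO, against 1.28% and 1.47% of all genes. The median length ratio of the members was 1.17 with 2HG and 1.20 in the knockout, against 1.11 and 1.10 over all genes. With the strongest peak alone it was 0.970 and 1.09, so that the direction with 2HG turned. Promoter peaks without overlap in WT were found at 1 member in WT + 2HG (Zfp423, 2 peaks) and at 4 members in CLPP-KO (Pparg, Ebf1, Ebf2 and Zfp423, 5 peaks). With peaks within 1000 bp merged the peaks numbered 1 and 2, with a summit p limit of 1e-05 they numbered 1 and 3, and with a reciprocal overlap of 50% they numbered 4 and 6. Of all protein-coding genes, 8.99% had such a peak with 2HG and 10.8% in the knockout. A gene with more annotated starts has more windows in which a promoter peak can fall, and no share was adjusted for this. The WT list is shared by these comparisons.

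**Figure D3:**
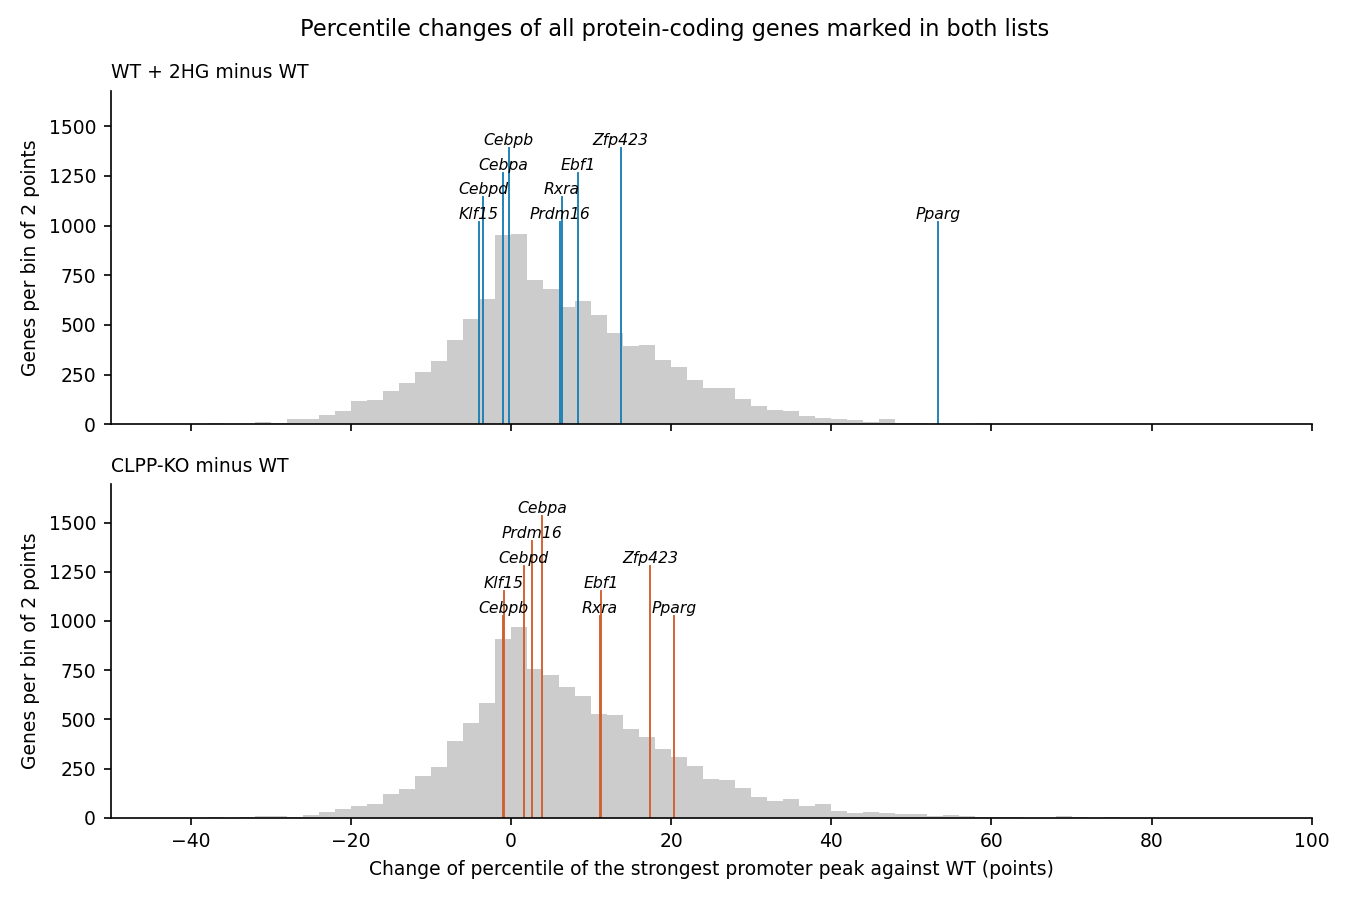
Change of percentile of the strongest promoter peak against WT in points (x axis) for all protein-coding genes marked in both lists (grey, genes per bin of 2 points), with coloured lines at the 9 members. Pparg stands at 53.4 in WT + 2HG, where the median of all genes is 3.69, and at 20.3 in CLPP-KO, where it is 5.27.

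When all starts of the members were counted, 74 starts formed 37 clusters. Of these, 10 held a start inside a WT peak, 12 inside a WT + 2HG peak and 12 inside a CLPP-KO peak. The share over the start clusters of all genes is not given, and the WT list also has the fewest peaks. Of the 10 members, 8 had more than 1 cluster. The CpG content of the starts is given as a property of the reference, independent of the lists. Among the 21770 canonical starts of protein-coding genes, those with fewer than 5 CpGs in 300 bases lay inside a peak in 0.926% of cases in WT, 1.51% with 2HG and 1.59% in the knockout. With 30 or more CpGs the shares were 67.4%, 88.7% and 89.8%. The members' marked starts ranged from the Klf15, Cebpb and first Pparg starts, with 47, 50 and 44 CpGs, to the first Ebf1 start, with 9. The PPARγ2 start, with 2 CpGs and 40.3% G and C, was among the poorest of the 13. Its ratio of observed to expected CpGs was 0.170, against 0.909 at the first Pparg start. The first RefSeq start of Rxra had the most CpGs of the 13 and lay in no peak, as described above. The canonical start of Rxra, upstream of it, lay inside a peak in every list.

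**Figure D4:**
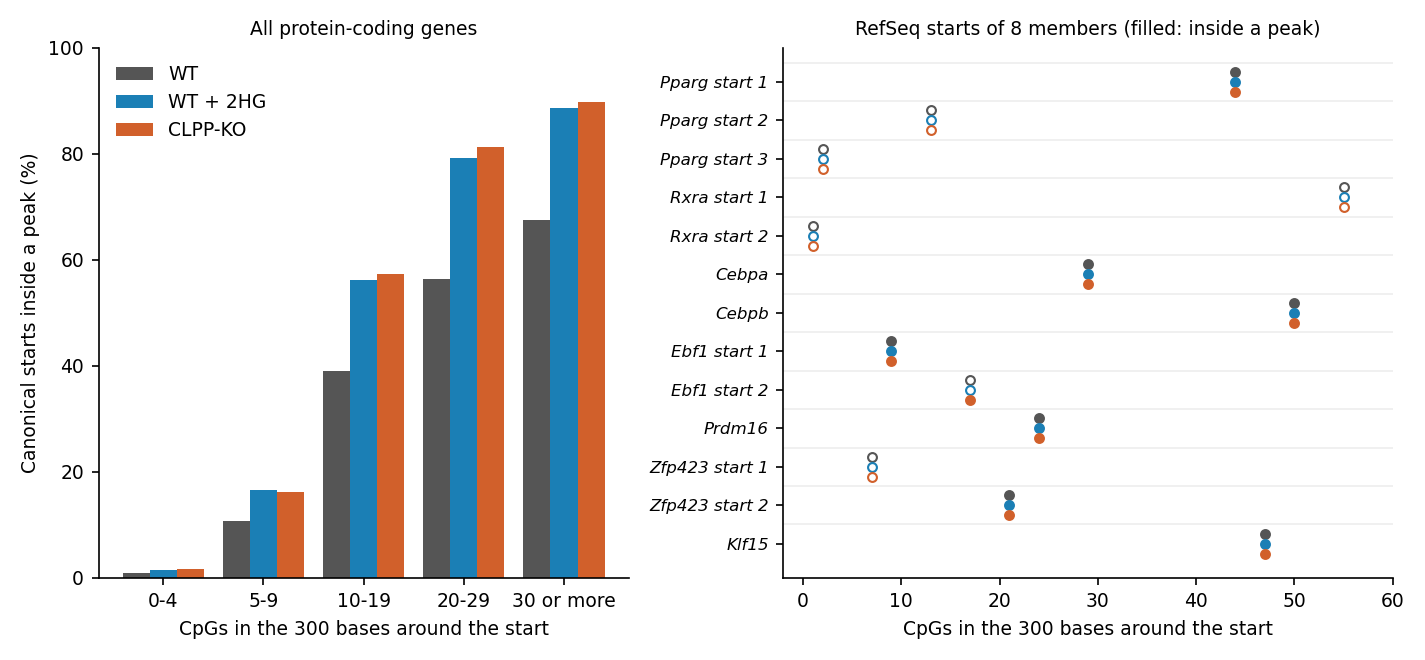
Left, share of canonical starts of protein-coding genes that lie inside a peak (%), by the number of CpGs in the 300 bases around the start, for each list. Right, the 13 RefSeq starts of 8 members by their number of CpGs, with 1 point per list, filled where the start lies inside a peak. The third Pparg start, with 2 CpGs, and the first Rxra start, with 55, are open in every list, and the second Ebf1 start is filled in CLPP-KO alone.

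Short motifs were counted on both strands in the same 300 bases. The GC box GGGCGG was present in 8 of the 13 promoters, against 35.7% of the 32851 promoters in the table, and the KLF box CACCC in 12, against 57.5%. The CCAAT box was present in 4, against 37.4%, and the TATA box TATAAA in 3, those of Cebpa, Cebpb and the second Pparg start, against 13.6%. The nuclear receptor element AGGTCA was found in 4, which include the first and second Pparg starts, against 16.3%. The EBF core CCCNNGGG was found in 2, of Cebpb and the intragenic start of Zfp423, against 13.7%. The full C/EBP palindrome TTGCGCAA and the cyclic AMP response element TGACGTCA were found in none, against 0.183% and 1.79%. Matches of different motifs can share bases. A match describes letters in this window and no binding.

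Other regulators of adipogenesis were counted in 3 lists of genes. Of 19 further activators, 17 were marked in all the lists and 2, Rxrg and Atf4, in none. Their median percentile was 85.5 in WT, 92.7 with 2HG and 91.0 in the knockout. The highest in WT were the Krüppel-like factors Klf4 (99.8) and Klf9 (99.7), and the lowest the Mediator subunit Med1 (40.0) and Egr2 (45.1). Of 19 factors that restrain adipogenesis, all were marked in each list, with medians of 95.0, 92.5 and 90.8. Klf2 (99.7) and Foxo1 (99.7) were highest in WT, and Id2 (8.36) and Snai2 (23.3) lowest. Of 17 regulators of brown fat, 14 were marked in WT and 15 in each other list, with medians of 89.0, 96.2 and 92.0. The corepressor Ctbp2 (99.9) and Foxc2 (99.6) were highest in WT, and Zfp362 (25.3) and Zic1 (28.4) lowest. Lhx8, a LIM homeobox gene, had no promoter peak in WT, one of 439 bp at a percentile of 5.40 in WT + 2HG and marks over 2425 bp with a percentile of 75.7 in CLPP-KO. Irf4 and Ppargc1a, which encodes the coactivator PGC-1α, were marked in no list. Of the activators, 3 of 17 were higher by 10 points with 2HG and 4 in the knockout. Of the restrainers 3 and 4 of 19 were higher, and of the brown fat regulators 6 and 4 of 14. Over all genes the shares were 32.0% and 36.1%. With 2HG no gene of the 3 lists was lower by 10 points, beside 9.70% of all genes. In the knockout 1 activator, 1 restrainer and no brown fat regulator were lower, beside 6.56% of all genes.

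**Figure D5:**
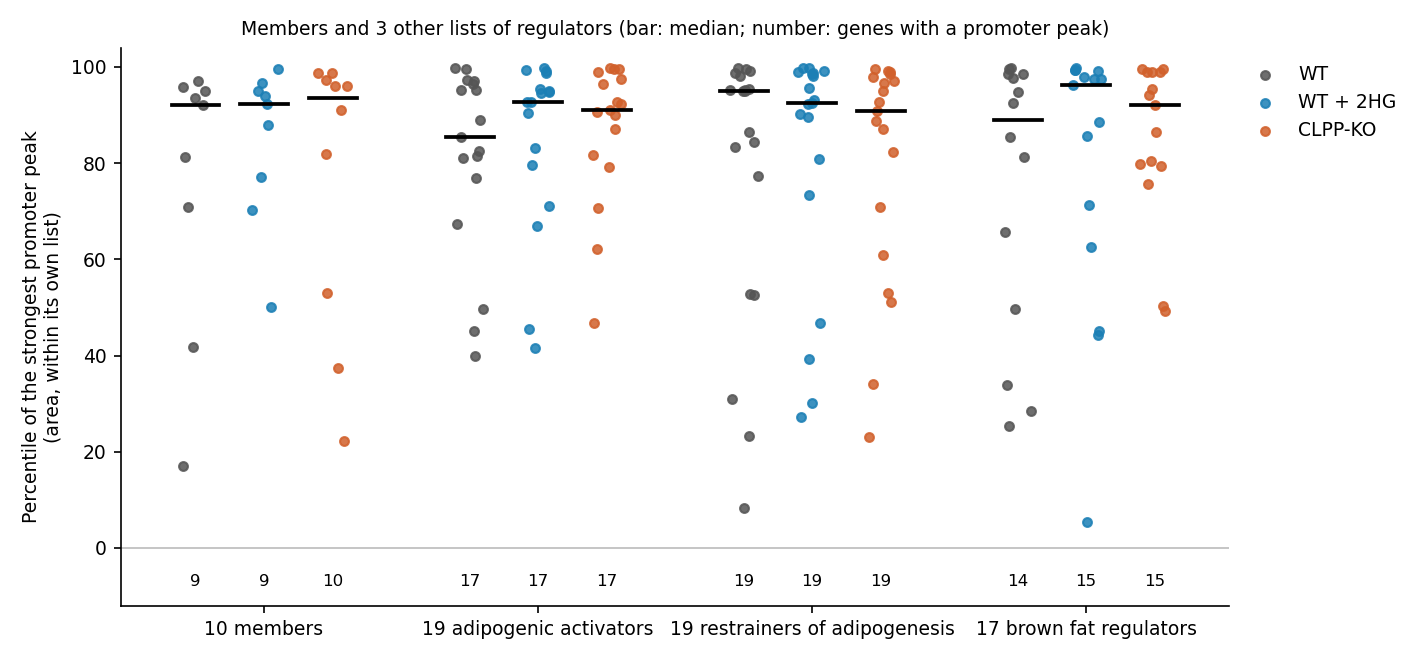
Percentile of the strongest promoter peak within its list (y axis, 0 to 100) for the 10 members and 3 other lists of regulators, with 1 point per marked gene, black bars at the medians and the number of marked genes below. The median of the restrainers of adipogenesis is 95.0 in WT, and that of the members 92.0.

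The labelled cell type was compared with marker genes. Of 7 brown adipocyte markers, Ucp1, Dio2, Elovl3, Cox8b and Cox7a1 had no promoter peak in any list, Pank1 had one in all, and Cidea had one in WT + 2HG and CLPP-KO with percentiles of 21.3 and 33.6. Of 7 general adipocyte markers, Adipoq, Fabp4 and Cidec were marked in no list. Pnpla2 was marked in all, Plin1 and Lpl in WT + 2HG and CLPP-KO, and Lipe in WT + 2HG. Adipocyte markers were thus marked in 1, 4 and 3 of 7 cases in the order WT, WT + 2HG and CLPP-KO. Of 8 mesenchymal or preadipocyte markers, 6 were marked in WT, 6 with 2HG and 7 in the knockout, with median percentiles of 27.3, 27.0 and 22.2. Of 5 immune markers, Cd14 alone was marked, in WT + 2HG. Of 5 muscle markers 1, 1 and 2 were marked in WT, WT + 2HG and CLPP-KO, of 4 endothelial markers 1 in each, of 3 epithelial markers 1, 2 and 2, and of 3 neuronal markers 1, 2 and 3. Most brown adipocyte markers, and Adipoq, Fabp4 and Cidec, thus had no promoter peak, while most regulators described above were marked. The share of all protein-coding genes with a promoter peak was 51.3%, 56.4% and 58.2% in the WT, 2HG and knockout lists. Canonical starts with fewer than 5 CpGs lay inside a peak in at most 1.59% of cases. The CpG content of the marker starts was not examined. The study reports that UCP1 rose strongly in wild-type and knockout cells on differentiation. The lists hold no expression values, so whether the genes without a peak were silent in these samples was not tested. Whether the state of differentiation differed between conditions was not tested.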

How the data were processed

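H3K4me3 ChIP–seq libraries of 12 ChIP and 3 input samples were processed by the authors with fastp 0.23.4, BWA 0.7.17 and Genrich 0.6.1 against GRCm39, per the labels and the study's methods. Replicates of a condition were called together. In the deposited lists the signal of a peak is its area under the curve and its summit value is a −log10 p-value. The q field is −1 throughout and was not used. Neither is scaled between lists.

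Starts of all transcripts came from GENCODE M39. Promoter windows of 2000 bp, percentiles, summed widths and overlaps of at least 1 bp were computed with Python 3.11.15, numpy 2.4.6 and pandas 2.3.3, and figures drawn with matplotlib 3.10.9. The code was tested on simulated data and its overlaps against bedtools. The members and lists were chosen with earlier results of these data known. Of the other lists, the 2 genes highest and the 2 lowest in WT, and genes marked in some lists only, were named. RefSeq promoter sequences of GRCm38.p6 were placed on GRCm39 by exact match. With 1 list per condition there was no test.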

Additional observations from a re-analysis of the deposited data

How the results depend on the processing

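The number of marked members was 9, 9 and 10 under every window, start set and filter that was run. Ranked by the summit p in place of the area, the members' median percentile was 68.7 in WT, 71.6 with 2HG and 79.4 in the knockout. Ranked by area per bp it was 57.0, 70.2 and 73.0. Both rankings thus placed the members lower than the area did. The all-gene median under these rankings is not given, so no excess over all genes can be read from them. Ranked among peaks shared by all lists it was 91.7, 90.5 and 94.7. Lists cut to equal size gave 91.2 with 2HG and 92.1 in the knockout. With the strongest peak only, the median length ratio was 0.970 with 2HG and 1.09 in the knockout, and among peaks whose summit p was 1e-05 or lower it was 1.16 and 1.09. Peaks absent from WT numbered 4 in WT + 2HG with a reciprocal overlap of 50%, and 1 each with the summit p limit, with peaks within 1000 bp merged and with equal-sized lists. In CLPP-KO they numbered 3 with the summit p limit and 2 with merging. Members higher in WT + 2HG numbered 4 by summit p and 5 by area per bp. In CLPP-KO only 1, Zfp423, was higher among shared peaks or in equal-sized lists.

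Under the 4 other rankings the difference from WT of Pparg in WT + 2HG was 34.8 to 49.4 points, that of Zfp423 13.0 to 37.0 in WT + 2HG and 17.1 to 40.3 in CLPP-KO, and that of Pparg in CLPP-KO 4.81 to 25.9. Other changes turned sign. Ranked by area per bp, Rxra changed by -21.7 points in WT + 2HG and -8.11 in CLPP-KO, Cebpb by 24.5 and 19.2, and Klf15 by 32.9 in CLPP-KO. Ranked by summit p Klf15 changed by 13.5 there, and among shared peaks Ebf1 changed by -1.60. Of 72 such values, 51 stayed on the same side of the limit of 10 points with no change of sign that passed it. The cause was not tested.

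No paired analysis was possible because each deposited list combines its 4 replicates and holds no values per replicate. Leaving out replicates was not possible for the same reason. The RefSeq annotation was not run, since the table used here is of another build.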

Other observations

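Inside the members' genes or within 10000 bp of either end of them, but outside their promoter windows, the lists held a few more peaks. Upstream of Ebf1, at least 5593 bp from its nearest start, each list had a peak, of 512 bp in WT, 332 bp with 2HG and 498 bp in the knockout, with percentiles of 19.0, 5.09 and 16.6. WT had a peak of 547 bp at a percentile of 7.65 that lay 2556 bp from the start of Cebpb. CLPP-KO had peaks of 219 and 274 bp inside Zfp423, with percentiles of 7.69 and 3.26, at 140727 and 5233 bp from the nearest start.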
